A study of Arabidopsis thaliana with 2 samples.

Results

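Transcripts of 43 Arabidopsis thaliana genes for flavonoid and anthocyanin synthesis were compared between cold-treated leaves of the wild type and of the mutant npr1-1. The members were chosen by gene ID from their place in the pathway, though with earlier results of these data known. The enzymes were 5 of phenylpropanoid entry, 5 of the early flavonoid steps and 5 of the flavonol branch. Another 11 were of late anthocyanin synthesis, decoration and transport, and 11 activators and 6 repressors of transcription were listed with them. Of the 43 genes 42 were among the 18345 in the deposited table. MYB113 has no row in it and was not analysed here. The minimum level of 5 CPM (read counts scaled to the same total in each library) in at least one library was met by 37 members, and each of the 37 met it in both libraries, so none passed through 1 genotype alone.

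Both groups were leaves of plants 2 weeks old, grown in long days under 90 µmol m-2 s-1 of light and then held for 24 h at 4 °C under 40 µmol m-2 s-1. One group was the wild type Col-0. The other was npr1-1, a line with a point mutation in NPR1, the transcriptional co-activator through which plants respond to salicylic acid. From the CPM values of the listed genes 50864103 reads were recovered for Col-0 and 50976521 for npr1-1. Each group was 1 library, and the sources used here do not say how many plants a library pooled. The differences thus have no replicate check and no p-value, and intervals on ratios are 95% counting intervals that leave out the spread between plants. Every plant was cold-treated, so the values compare genotypes in the cold and do not measure a response to it.

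Leaf transcripts were abundant in both libraries. RBCS1A, a subunit gene of Rubisco, stood at 13067 CPM in Col-0 against 13311 CPM in npr1-1. CAB1, for a light-harvesting protein, stood at 15686 and 18069 CPM, and RCA, Rubisco activase, at 4137 and 5446 CPM. ATML1 of the epidermis was at 82.0 and 82.8 CPM, and GL2, which acts in leaf hairs, at 49.7 and 45.1 CPM. PYK10, a root gene, was at 47.2 and 48.8 CPM. LHCB2.1, for another light-harvesting protein, stood at 2227 and 2416 CPM. The leaf genes CAB1, LHCB2.1 and RCA were thus higher in npr1-1, by 0.20, 0.12 and 0.40 on the log2(CPM + 1) scale. Whether this has a part in the differences of the members was not tested. Of the listed markers of other organs CRA1 and SESA3 (seed), BAN (seed coat) and AG, AP3 and AP1 (flower) have no row in the table. STM (meristem) was at 2.54 and 2.69 CPM and GL1 (leaf hairs) at 2.14 and 2.06 CPM, both below the minimum. In a bulk leaf library, more cells that use a pathway and more RNA per such cell cannot be told apart.

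Flavonoids are made from phenylalanine. Phenylalanine ammonia-lyase, cinnamate 4-hydroxylase and 4-coumarate:CoA ligase supply an activated acid, which chalcone synthase and the next early enzymes turn into dihydroflavonols. There the route divides: flavonol synthase leads to flavonols, which absorb ultraviolet light, while dihydroflavonol reductase and the late enzymes lead to the red and purple anthocyanins, which are decorated with sugars and acids and stored in the vacuole. In Arabidopsis the early and flavonol steps are activated mainly by MYB11, MYB12 and MYB111, and the late steps by complexes of a MYB, a bHLH protein and TTG1, which is why the early and late groups are kept apart here. Anthocyanins commonly build up in leaves of plants in cold and bright conditions.

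The promoters of the 6 late genes with the largest differences are printed here. That of CHS, an early gene at nearly the same level in both libraries, is printed with them. The sequences are the 250 bases before the gene start annotated by RefSeq on TAIR10.1, read 5′ to 3′ on the strand of the gene. They lie at chr5:21938397-21938646 (minus strand) for UF3GT, chr3:11400333-11400582 (minus) for AT5MAT, chr4:12006210-12006459 (minus) for LDOX, chr4:8123836-8124085 (minus) for AT4G14090, chr5:5658166-5658415 (plus) for GSTF12, chr5:17166033-17166282 (minus) for DFR and chr5:4488226-4488475 (plus) for CHS. Capitals mark CANNTG, the E-box letters read by bHLH proteins, ACGT, the core read by bZIP proteins such as HY5, and the run CCACCGGT. CACGTG, the G-box, is a match to both of the first kinds. The RefSeq starts lie at unlike distances from the deposited ones, so the windows are not matched regions. The LDOX window adjoins the deposited start at 12006209, whereas the deposited start of CHS, 4488688, lies beyond the end of its window.
UF3GT: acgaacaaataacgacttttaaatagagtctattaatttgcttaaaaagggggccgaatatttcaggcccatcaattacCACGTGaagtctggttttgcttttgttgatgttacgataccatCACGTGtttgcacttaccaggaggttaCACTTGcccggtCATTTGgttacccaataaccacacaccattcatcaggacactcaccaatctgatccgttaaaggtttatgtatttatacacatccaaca
AT5MAT: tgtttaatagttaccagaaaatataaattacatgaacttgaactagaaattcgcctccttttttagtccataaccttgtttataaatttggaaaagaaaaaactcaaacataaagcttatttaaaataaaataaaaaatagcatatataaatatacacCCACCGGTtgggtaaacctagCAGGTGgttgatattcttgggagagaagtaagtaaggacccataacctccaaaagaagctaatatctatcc
LDOX: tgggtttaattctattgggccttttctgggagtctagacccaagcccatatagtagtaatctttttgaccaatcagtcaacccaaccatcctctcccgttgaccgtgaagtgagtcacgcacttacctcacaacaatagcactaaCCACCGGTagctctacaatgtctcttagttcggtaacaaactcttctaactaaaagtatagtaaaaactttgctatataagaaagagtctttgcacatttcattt
AT4G14090: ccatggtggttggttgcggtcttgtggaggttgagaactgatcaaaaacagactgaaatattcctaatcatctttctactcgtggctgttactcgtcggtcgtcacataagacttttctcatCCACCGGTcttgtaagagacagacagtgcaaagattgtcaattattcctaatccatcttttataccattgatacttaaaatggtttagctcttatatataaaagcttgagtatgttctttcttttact
GSTF12: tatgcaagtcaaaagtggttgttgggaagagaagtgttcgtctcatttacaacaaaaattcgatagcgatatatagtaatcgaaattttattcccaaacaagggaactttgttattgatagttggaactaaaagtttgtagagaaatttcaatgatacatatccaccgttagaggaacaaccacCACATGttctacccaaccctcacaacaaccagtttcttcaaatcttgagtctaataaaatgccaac
DFR: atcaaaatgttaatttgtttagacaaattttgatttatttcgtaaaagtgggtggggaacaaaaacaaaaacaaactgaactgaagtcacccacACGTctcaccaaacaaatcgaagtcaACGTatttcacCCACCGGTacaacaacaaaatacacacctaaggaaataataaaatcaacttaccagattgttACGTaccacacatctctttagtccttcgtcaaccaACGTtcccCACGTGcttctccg
CHS: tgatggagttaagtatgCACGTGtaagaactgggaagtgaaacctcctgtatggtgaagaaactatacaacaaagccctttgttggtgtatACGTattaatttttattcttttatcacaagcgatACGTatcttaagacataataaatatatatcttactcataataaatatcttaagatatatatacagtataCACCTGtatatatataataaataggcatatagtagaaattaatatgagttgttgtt

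The run CCACCGGT stood in 4 of the 11 late promoters, those of DFR, LDOX, AT4G14090 and AT5MAT, and in 0 of the 15 of the entry, early and flavonol enzymes. Across 27443 nuclear protein-coding genes it was in 62 promoters, or 0.226%, on either strand. In all 4 late genes it read in the direction of the gene. It began 119 bases before the RefSeq start in DFR, 105 in LDOX, 128 in AT4G14090 and 92 in AT5MAT. These letters were picked out by reading the late promoters, so the count among them is a description of the sequences and no test. Of 39 other genes past the minimum that carry it, 17, or 43.6%, had a difference above 0 and 0 were 1.5-fold higher in npr1-1. Their median log2 difference was -0.08. Of all 13976 genes past the minimum 41% were above 0 and 0.909% were 1.5-fold higher, with a median of -0.05. These other carriers were thus near the shares of all genes.

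Other motifs were chosen with the values of the members known and were searched on both strands. The G-box was in 3 of 5 early promoters (CHS, CHIL and F3H) and 3 of 11 late ones (DFR, SCPL10 and UF3GT, the last with 2 matches), against 6.49% of all promoters. E-box letters, which include the G-box, were in 5 of 5 early and 7 of 11 late promoters, against 55.3%. The ACGT core was in 3 of 5 early and 4 of 11 late promoters, against 44.1%. ACCTACC, an AC-rich run read by MYB proteins, was in 0 of the early and late promoters, in those of UGT78D3 and AT1G06000 of the flavonol branch and in that of 4CL3, against 1.16%. TGACG, the letters bound by the TGA factors that partner NPR1, was in 2 of 11 late promoters, of DFR and AT4G14090, and in 0 of 15 others of the pathway, against 18.6%. CNGTT, a MYB core, was in 4 of 5 early and 9 of 11 late promoters, against 70.2%. The heat shock letters GAANNTTC were in 2 of 11 late promoters, of BGLU10 and GSTF12, and in 0 of the 15 others, against 9.55%. ACCGGT, the end of the run CCACCGGT, was in 4 of 11 late promoters and 0 of the 15 others, against 3.63%. A match is not a binding site, and a promoter with none may still hold a site farther away or with other letters. The counts also depend on the annotated starts, so the windows of different genes may cover unlike regions.

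**Figure D1:**
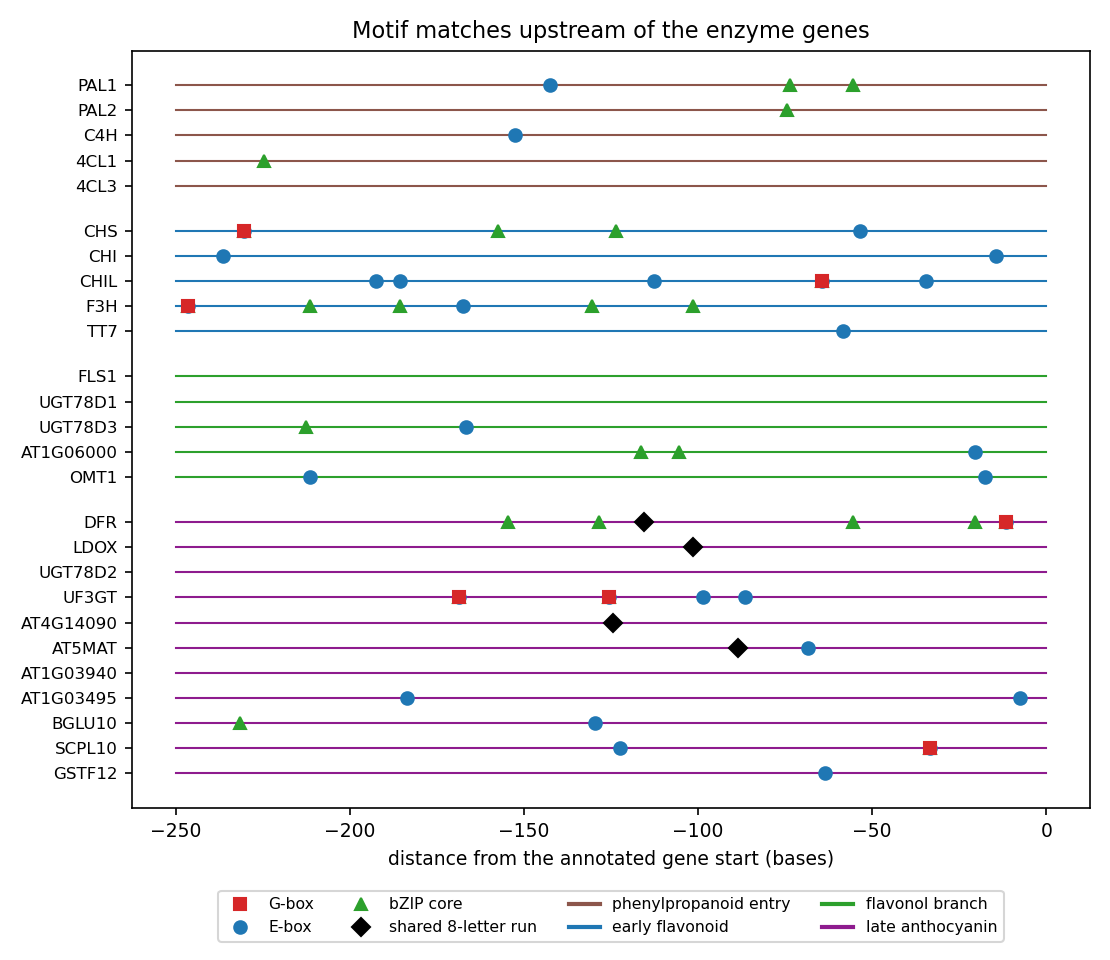
Matches of 4 motifs in the 250 bases upstream of the annotated start of the 26 enzyme genes; the x axis is the distance from the start in bases, lines are coloured by pathway group, and symbols mark G-box, E-box, bZIP core (the ACGT letters) and the shared 8-letter run. The run is seen in 4 late genes between 128 and 85 bases before the start and in none of the other groups.

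Late anthocyanin genes were higher in npr1-1, while the entry, early and flavonol groups were close to level. Of the 11 late genes 10 had a log2 difference (npr1-1 minus Col-0, on the log2(CPM + 1) scale) above 0, and 7 were at least 1.5-fold higher. Their median was 0.63. The medians were -0.09 for entry, 0.10 for early and -0.04 for flavonol enzymes, and 0 genes of these 3 groups were 1.5-fold apart on this scale. TT7 of the early group fell just short of the line, at 0.58, and its ratio without the pseudocount was 1.51. Of all 13976 genes past the minimum 41% were above 0, 0.909% were 1.5-fold higher and 2.06% were 1.5-fold lower, with a median of -0.05. Over the 37 members past the minimum 25 were above 0, 8 were 1.5-fold higher, 0 were 1.5-fold lower and 0 reached 2-fold, which 0.2% of all genes did upward and 0.529% downward. The differences were thus modest in size. The counting interval of the ratio lay above 1 for 23 of the 37, below 1 for 10 and held 1 for 4. The same count was not made over all genes, so it is not a result particular to the members. At this depth an interval can leave out 1 at a small difference, as for CHS at a ratio of 0.982.

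**Figure D2:**
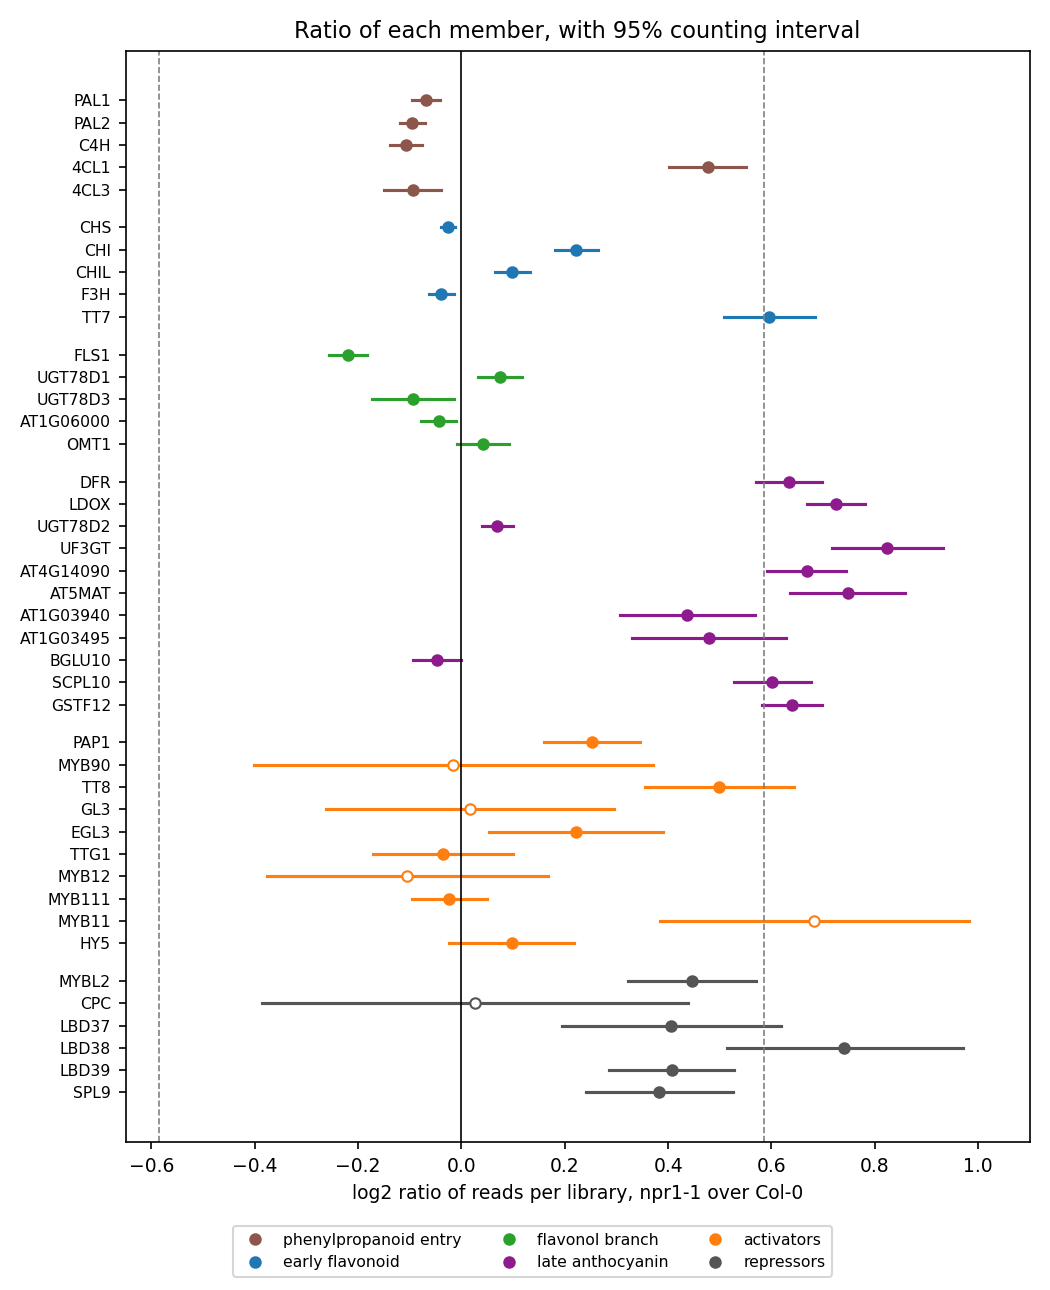
Ratio of npr1-1 to Col-0 for the 42 measured members on a log2 axis, with bars for the 95% counting interval, dashed lines at 1.5-fold and open circles for members below the minimum of 5 CPM. Late anthocyanin genes lie mostly at or beyond the right dashed line, with UGT78D2 and BGLU10 near 0, whereas most entry, early and flavonol genes lie near 0.

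Entry into the pathway was nearly level, with a single gene apart from the rest. PAL1, a phenylalanine ammonia-lyase, stood at 442 CPM in Col-0 against 421 CPM in npr1-1, and PAL2 at 576 and 540 CPM. C4H, the cinnamate hydroxylase, stood at 355 and 330 CPM. These 3 genes and 4CL3 had ratios of 0.928 to 0.954, with counting intervals below 1, though PAL1 turned to 0.02 on the log2 scale once the median of genes of similar length was subtracted. The ligases divided. 4CL3, the isoform tied to flavonoids, stood at 110 and 103 CPM, whereas 4CL1, tied mainly to lignin, stood at 48.9 and 68.1 CPM, a ratio of 1.39 (1.32 to 1.47). Per kilobase of transcript 4CL1 was 0.418 of the level of 4CL3 in Col-0 and 0.621 in npr1-1.

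The early flavonoid enzymes were the most abundant group, and both their largest genes were level. CHS, chalcone synthase, which joins the activated acid to malonyl units (AT5G13930, chromosome 5, 4488688 to 4490264, TAIR10), had 96960 reads in Col-0 and 95459 in npr1-1, a ratio of 0.982. F3H, flavanone 3-hydroxylase, stood at 520 and 506 CPM, a ratio of 0.973. The deficits of CHS and F3H, of -0.03 and -0.04 on the log2 scale, became excesses of 0.02 and 0.004 under median-ratio scaling, so neither has a firm direction. A long noncoding RNA annotated on the other strand covers 1588 bases of F3H, and whether the counting used strand is not given in the sources used here.

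CHI, chalcone isomerase, stood at 175 and 204 CPM, a ratio of 1.17 (1.13 to 1.20). CHIL, a chalcone isomerase-like protein that improves the yield of chalcone synthase, stood at 277 and 296 CPM. TT7, the flavonoid 3′-hydroxylase that adds the hydroxyl group typical of quercetin and cyanidin, was apart from the other early genes. It stood at 33.5 CPM in Col-0 against 50.6 CPM in npr1-1, from 1703 and 2580 reads. Its ratio was 1.51 (1.42 to 1.61), and its log2 difference of 0.58, which includes the pseudocount, lay just under the 1.5-fold line, crossing it in 4 of 7 other settings. Per kilobase TT7 was at 0.0143 of the level of CHS in Col-0 and 0.0220 in npr1-1.

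The flavonol branch had small differences in both directions. FLS1, flavonol synthase, which competes with dihydroflavonol reductase for substrate, had the lowest difference of all 37 members. It stood at 252 CPM in Col-0 against 216 CPM in npr1-1, a ratio of 0.859 (0.838 to 0.882), and kept its sign in all 7 other settings. The glycosyltransferases, which add sugars to flavonols, stood at 178 and 187 CPM for UGT78D1, 52.7 and 49.4 CPM for UGT78D3 and 286 and 277 CPM for AT1G06000, annotated as a UDP-glycosyltransferase. For AT1G06000 the sign of its difference, -0.04, changed to 0.003 with the length correction, and a noncoding RNA on the other strand covers 1580 bases of it. OMT1, which methylates quercetin and lignin precursors, stood at 122 and 125 CPM, and its counting interval held 1.

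At the branch point the balance of transcripts differed between the libraries. DFR was at 0.245 of the level of FLS1 per kilobase in Col-0 and 0.443 in npr1-1, so the ratio of these proportions was 1.81 (1.72 to 1.90). LDOX was at 0.340 of FLS1 in Col-0 and 0.654 in npr1-1, a ratio of 1.92 (1.84 to 2.01). Both parts of each proportion contributed, with DFR and LDOX higher and FLS1 lower in npr1-1.

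DFR, dihydroflavonol reductase (AT5G42800, chromosome 5, 17164141 to 17165918), the first enzyme of the late steps, stood at 62.9 CPM in Col-0 against 97.6 CPM in npr1-1, or 3201 and 4977 reads. Its ratio was 1.55 (1.48 to 1.62). LDOX, anthocyanidin synthase (AT4G22880, chromosome 4, 12004768 to 12006209), which forms the coloured ring, stood at 80.7 and 133 CPM, a ratio of 1.65 (1.59 to 1.72). Its neighbour AT4G22870 resembles LDOX at 96.2% identity over 29.2% of the transcript and stood at 2.36 and 3.86 CPM, so, some reads may have been placed in the wrong one of the pair.

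Among the sugar and acyl transferases of anthocyanins UF3GT, AT4G14090, AT5MAT and SCPL10 were at least 1.5-fold higher in npr1-1, while UGT78D2 and BGLU10 were nearly level. UF3GT, which adds xylose (AT5G54060, chromosome 5, 21936879 to 21938369), had 1111 reads in Col-0 and 1971 in npr1-1. Its ratio of 1.77 (1.64 to 1.91) was the highest of the 37 members, and 0.351% of all tested genes had a log2 difference at least as high. AT4G14090, annotated as a UDP-glycosyltransferase (chromosome 4, 8122188 to 8123835), stood at 44.5 and 70.7 CPM, a ratio of 1.59 (1.51 to 1.68). It overlaps AT4G14100 on the other strand by 230 bases, and that gene stood at 12.1 and 14.0 CPM. AT5MAT, the malonyltransferase (AT3G29590, chromosome 3, 11398917 to 11400266), stood at 20.7 and 34.8 CPM, a ratio of 1.68 (1.55 to 1.81).

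UGT78D2, the 3-O-glucosyltransferase, serves flavonols as well as anthocyanins. It was the most abundant late gene, at 335 CPM in Col-0 against 352 CPM in npr1-1, and its ratio was 1.05 (1.03 to 1.07). Its neighbour UGT78D3, 3049 bases away with 1 listed gene between them, was slightly lower in npr1-1. A copy of both, AT5G17040, is 82.4% identical to UGT78D2 and 86.2% to UGT78D3, and stood higher in npr1-1, at 33.5 and 43.6 CPM. Per kilobase UF3GT was at 0.0666 of the level of UGT78D2 in Col-0 and 0.112 in npr1-1, so genes that act in sequence on the same pigment differed in their excess.

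SCPL10, which transfers sinapate to anthocyanins (AT2G23000, chromosome 2, 9792212 to 9795863), stood at 48.5 and 73.7 CPM, a ratio of 1.52 (1.44 to 1.60). Its log2 difference of 0.59 was the smallest past the 1.5-fold line and fell short of it with a pseudocount of 5 CPM. The copies of SCPL10 with the highest identity were SCPL9 (86.5%), at 12.6 and 18.0 CPM, and SNG1 (86.1%), at 48.4 and 40.4 CPM. GSTF12, which carries anthocyanins toward the vacuole (AT5G17220, chromosome 5, 5658460 to 5659386), stood at 76.8 and 120 CPM, or 3908 and 6101 reads. With a ratio of 1.56 (1.496 to 1.622) it fell just short of the line, at 0.58, once the length correction was applied, since its transcript of 777 bases is the shortest of the late group.

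The remaining late genes have close copies that make their reads uncertain. AT1G03940 and AT1G03495, annotated acyltransferases that are 96.7% identical to each other, stood at 16.4 and 22.2 CPM and at 12.5 and 17.4 CPM. Both were higher in npr1-1, with ratios of 1.35 and 1.39, but the split of reads between the pair is uncertain. BGLU10, a glucosyltransferase that uses sugar esters, stood at 145 and 140 CPM and turned from -0.05 to 0.02 with the length correction. It is 92.8% identical to BGLU9, at 121 and 116 CPM, over 98.2% of its length, so its own level cannot be set apart from that copy.

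**Figure D3:**
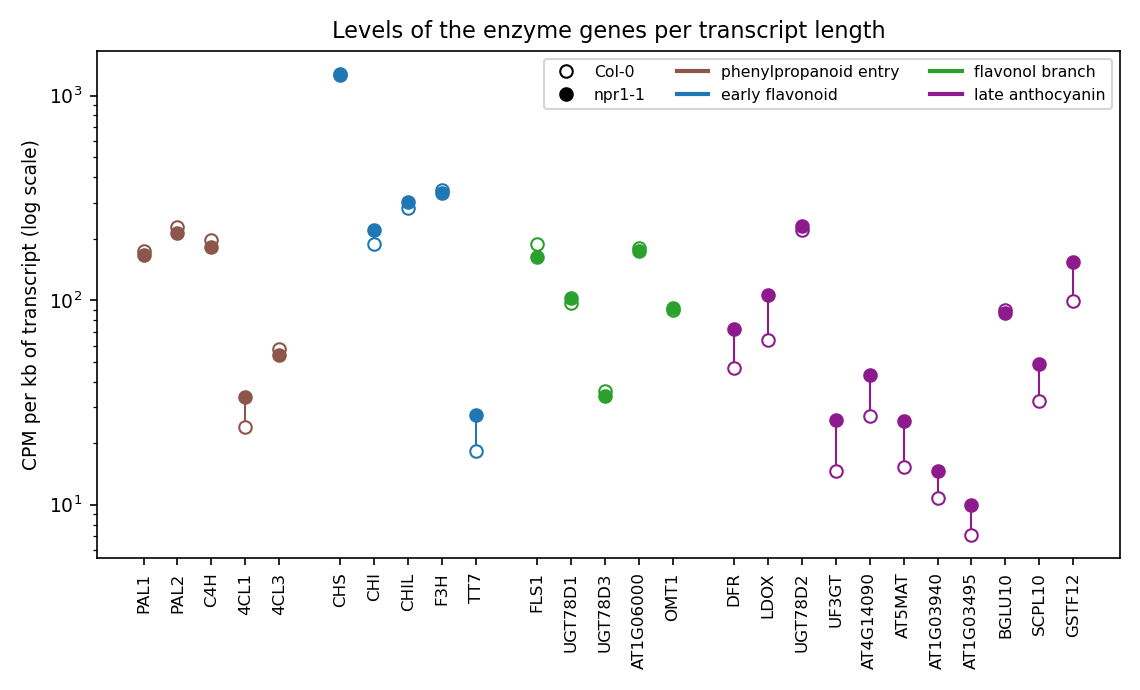
Level of each enzyme gene as CPM per kilobase of transcript on a log axis, with open circles for Col-0, filled circles for npr1-1 and a line joining the 2 libraries. The gap is widest in the late group, for example 64.2 to 106 for LDOX, and hardly visible for CHS, at 1279 and 1256.

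Read against each other, the early and late steps differed in ratio. Summed over the 5 early genes the level was 2912 CPM in Col-0 against 2930 CPM in npr1-1, a ratio of 1.006 (0.999 to 1.014). Summed over the 11 late genes it was 865 and 1100 CPM, a ratio of 1.27 (1.26 to 1.29). The late ratio was 1.26 times the early one (1.25 to 1.28). Sums follow their most abundant gene, which was CHS among the early genes and UGT78D2 among the late. With both left out the late ratio was 1.34 times the early one, and without UGT78D2 alone it was 1.40 times.

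Gene by gene, 7 of the 11 late members had a larger difference than TT7, the highest of the early group, and 9 had a larger one than CHI, the next early gene. TT7 thus lay with the late genes rather than with the other early ones. Within the late group there was a gap, with no gene between 0.07 (UGT78D2) and 0.42 (AT1G03940) on the log2 scale. Transcript length did not differ much between the early and late groups, with a median of 1508 bases for late genes and 1491 for early genes. It was 1614 for all genes past the minimum and 2029 for the entry group. With the length correction the late median exceeded the early one by 0.52 on the log2 scale, against 0.53 without it.

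Per kilobase the median of the late genes lay below that of the early ones in both libraries, though the groups overlapped. The early gene TT7 was at 18.2 CPM per kilobase in Col-0 and 27.6 in npr1-1, below late genes such as DFR, LDOX and GSTF12, and the late gene UGT78D2, at 220.1 and 231, was above the early gene CHI, at 188 and 219. The median level of the late group was 32.2 CPM per kilobase in Col-0 and 48.9 in npr1-1. For the early group it was 282 and 302, for the flavonol group 97.1 and 102, and for the entry group 175 and 166.

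**Figure D4:**
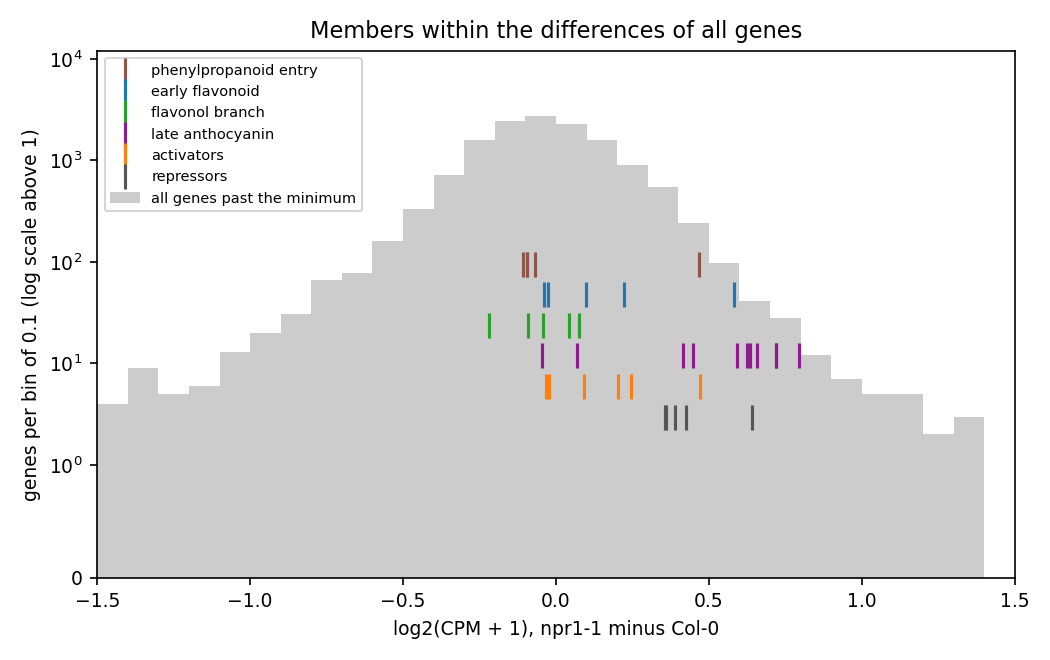
Histogram of log2(CPM + 1) differences, npr1-1 minus Col-0, for all 13976 genes past the minimum in bins of 0.1, with ticks for the 37 members by group and a log scale on the y axis; the x axis is limited to 1.5 either way. Most late members and all 5 repressors lie right of the bulk of genes, whose median is -0.05.

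Among the activators of the late steps the bHLH gene TT8 had the largest excess. TT8, which is itself a target of the MYB, bHLH and TTG1 complex, stood at 13.3 CPM in Col-0 against 18.9 CPM in npr1-1, or 679 and 962 reads, a ratio of 1.41 (1.28 to 1.56). PAP1, the main anthocyanin MYB of leaves, stood at 33.7 and 40.2 CPM, a ratio of 1.19 (1.12 to 1.27). EGL3, another bHLH gene, stood at 10.6 and 12.4 CPM, a ratio of 1.17 (1.04 to 1.31). None of the 3 was 1.5-fold higher.

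TTG1, the scaffold of the complex, stood at 17.7 and 17.2 CPM with an interval that held 1, and its sign changed with scaling. Per kilobase TT8 was at 0.644 of the level of TTG1 in Col-0 and 0.933 in npr1-1, so the proportions of partners in the complex differed at the transcript level. GL3, the bHLH partner best known from leaf hairs, was below the minimum with 215 reads in Col-0 and 218 in npr1-1. MYB90, a close relative of PAP1, was also below it, with 115 and 114 reads, so PAP1 was the only measured MYB of this kind past the minimum.

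The activators of the flavonol and early steps were level or scarce. MYB111 was the most abundant of them, at 61.1 CPM in Col-0 against 60.1 CPM in npr1-1, with a counting interval that held 1 and a sign that changed with scaling. MYB12 had 236 and 220 reads and lay below the minimum. MYB11, also below it, had 153 reads in Col-0 and 246 in npr1-1, a ratio of 1.60 (1.31 to 1.98). A gene annotated on the other strand covers 495 bases of MYB11. HY5, the bZIP factor that links light to the pathway, stood at 21.3 and 22.8 CPM, and its interval held 1.

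Of the 6 repressors among the members, the 5 that passed the minimum were all above 0, with a median of 0.39, and 1 of them, LBD38, was 1.5-fold higher. Among all genes past the minimum 41% were above 0 and 0.909% were 1.5-fold higher. Another 5 repressors of the pathway, outside the members, had a median of -0.14, with 3 of the 5 below 0. MYBL2, a small MYB that binds the bHLH partners and blocks the complex, stood at 18.2 CPM in Col-0 against 24.8 CPM in npr1-1, a ratio of 1.36 (1.25 to 1.49). SPL9, which disturbs the complex by binding PAP1, stood at 14.2 and 18.5 CPM, a ratio of 1.304 (1.18 to 1.44). Per kilobase PAP1 was at 2.003 times the level of MYBL2 in Col-0 and 1.75 times in npr1-1, a ratio of 0.874 (0.786 to 0.972).

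LBD37, LBD38 and LBD39, repressors of anthocyanin genes that respond to nitrate, shared the direction. LBD39 was the most abundant, at 19.1 and 25.3 CPM, a ratio of 1.33 (1.22 to 1.44). LBD38 (AT3G49940, chromosome 3, 18514343 to 18515475) had 255 reads in Col-0 and 427 in npr1-1, a ratio of 1.67 (1.43 to 1.96), and was the only regulator past both the minimum and 1.5-fold. It lay close to the minimum, at 5.01 and 8.38 CPM, and fell under 1.5-fold, to 0.42 on the log2 scale, with a pseudocount of 5 CPM. LBD37 stood at 6.41 and 8.49 CPM, a ratio of 1.33 (1.15 to 1.53). CPC, a single-repeat MYB that competes for bHLH partners, lay below the minimum with 100 and 102 reads.

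**Figure D5:**
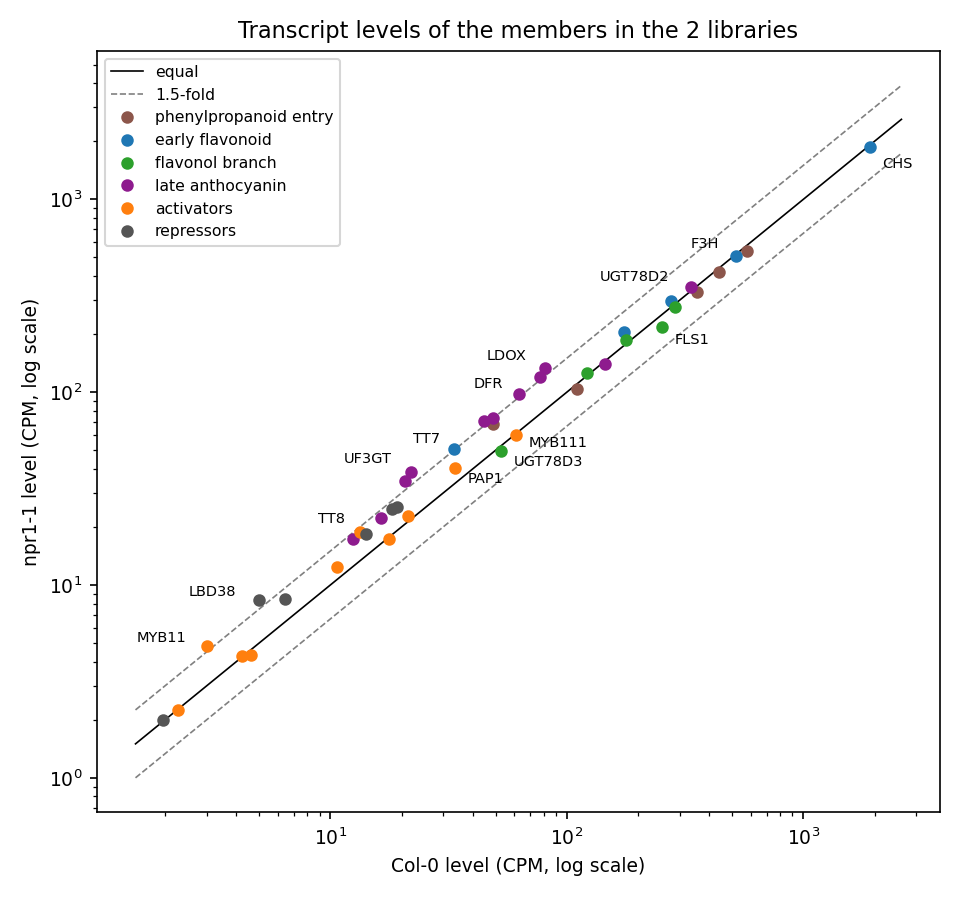
Level of the 42 measured members in Col-0 (x axis) and npr1-1 (y axis) in CPM, both on log axes, with a solid line for equal levels and dashed lines for 1.5-fold. Late genes between about the levels of UF3GT and LDOX follow the upper dashed line, and the most abundant genes, up to CHS, lie on the solid line.

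No enzyme gene above the level of LDOX in Col-0 was 1.5-fold apart, and UGT78D2 and BGLU10, the most abundant late genes, were nearly level. The 7 late genes past 1.5-fold had Col-0 levels from 20.7 CPM for AT5MAT to 80.7 CPM for LDOX.

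Of 58 further genes of the surrounding pathways, listed with the members' values known, 48 were in the table and 37 passed the minimum. Of these 37, 16 (43.2%) were above 0 and 21 below, 0 were 1.5-fold apart in either direction, and the median log2 difference was -0.05. Among all genes past the minimum 41% were above 0, 0.909% were 1.5-fold higher and 2.06% were 1.5-fold lower, with a median of -0.05. The further genes were thus near the shares of all genes. For each class the 2 genes with the largest difference are named. Lignin and sinapate enzymes had a median of 0.11 over 8 genes, and FAH1, ferulate 5-hydroxylase, stood at 170.4 and 212 CPM and CYP98A3, coumarate 3-hydroxylase, at 36.9 and 44.5 CPM. PAL3 and PAL4, minor phenylalanine ammonia-lyases, had log2 differences of 0.23 and -0.21.

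Other genes tied to anthocyanins had a median of -0.12 over 5 genes. DTX35, a vacuolar transporter of flavonoids, stood at 355 and 307 CPM, and ABCC2, a vacuolar pump for conjugates, at 170.1 and 190.4 CPM. The light-signalling genes had a median of -0.06 over 13 genes, with PIF3, a phytochrome partner, at -0.31 and BBX32, a B-box protein, at -0.28. Among the further repressors MYB7 was at -0.34 and KFB50, an F-box protein that targets phenylalanine ammonia-lyase, at -0.22.

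Further genes tied to the MYB, bHLH and TTG1 complex had a median of 0.11 over 3 genes, with TTG2 at 0.14 and GL2 at -0.14. Of 7 genes for proanthocyanidins, the tannins of the seed coat, TT12 alone was in the table, at 1.89 and 1.96 CPM. UGT73C6, a flavonol 7-O-glucosyltransferase below the minimum, had 117 reads in Col-0 and 246 in npr1-1.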

How the data were processed

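Leaf RNA-seq libraries, 1 of Col-0 and 1 of npr1-1, were grouped by the labels' genotype. Per the file headers the deposited values are CPM, which the authors scaled to the same total over all genes in the table, and they were used unchanged. The submitters' processing notes name TopHat2, DESeq2 and TAIR10, with no version and no role. What counted the reads, whether strand was used, how the listed genes were filtered and whether plants were pooled is not given in the sources used here. Each deposited CPM value was a whole multiple of 1 read's worth, within 0.01 reads for 100% of values, which gave back the reads behind each level: 5 CPM was 254 reads in Col-0 and 255 in npr1-1. These were used for exact conditional binomial (Clopper-Pearson) 95% intervals of ratios. Intervals of a ratio of ratios used the normal approximation on the log scale. PCR copies are not separate molecules, so intervals cover counting error only. With single libraries no count test was run.

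Differences were log2(CPM + 1), npr1-1 minus Col-0, over the 13976 genes that reached 5 CPM in either library. A pseudocount understates the change of low genes. Alternatives were pseudocounts of 0.1 and 5 CPM, a minimum of 1 CPM or none, median-ratio and trimmed-mean scaling, and subtraction of the median of each gene's bin of transcript length (20 bins). All members are named, and of other pathway genes those past 1.5-fold and the 2 per class with the largest difference. UGT73C6, below the minimum, TT12 and the copies and neighbours of members were named after their values were seen. The members, lists and motifs were chosen with earlier results of these data known.

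Gene coordinates are those of the deposited TAIR10 table, and levels per kilobase use its transcript lengths. Promoters were cut from RefSeq's TAIR10.1 genome at RefSeq gene starts, which often differ from the deposited ends. All 43 members and 18154 of 18345 listed genes matched a RefSeq gene, and these 18154 overlapped it on the same chromosome and strand. Both ends were identical for 1478 of them. Close copies were sought among annotated transcripts with BLAST 2.17.0. Calculations used scipy 1.17.1, pandas 2.3.3 and numpy 2.4.6 under Python 3.11.15. Figures were drawn with matplotlib 3.10.9. The calculations were tested on simulated data.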

Additional observations from a re-analysis of the deposited data

How the results depend on the processing

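No called member changed sign under another setting, and 14 of 259 member values did, in CHS, F3H, AT1G06000, BGLU10, PAL1, TTG1 and MYB111, all near 0. Of 100 group values 15 moved and 2 took the other sign. Median-ratio scaling moved the early median from 0.10 to 0.1408 and the flavonol median from -0.04 to -0.0015, and trimmed-mean scaling moved them likewise to 0.1408 and -0.0015. Both scalings shift every gene by about 0.04 by construction. The length correction moved the entry median from -0.09 to -0.0026 and the flavonol median to 0.0027, the other sign. As means the entry, early and late values were 0.021, 0.167 and 0.512, and without the member with the largest difference the early and flavonol medians were 0.036 and -0.0014. At a minimum of 1 CPM or none, 1 further pathway gene, UGT73C6, was 1.5-fold higher, where 0 were, because it then entered. The late against early ratio, 0.34 on the log2 scale, was 0.53 from medians, 0.52 from medians after the length correction, 0.43 without the most abundant member of each group and 0.49 without UGT78D2. Beyond the changes of members and the shifts named, the cause was not tested. No paired analysis was possible because each genotype had 1 library, and for the same reason no replicate could be left out. Members past the minimum had at least 255 reads in Col-0, the count of LBD38. The minimum, which either library could meet, left scarcer members out. Counting intervals were wide near the minimum, as for LBD38 at 1.43 to 1.96, and a limit by depth was not tested. The spread between plants was not measured.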
